A study of Mus musculus with 56 samples.

Results

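The microRNA miR-34a and 8 genes of the p53 response, Trp53, Cdkn1a, Mdm2, Bax, Btg2, Gdf15, Bbc3 and Sirt1, were followed in mouse livers after genomic excision of miR-122. miR-34a was 1 of the 479 microRNA entries measured by small RNA sequencing, and the 8 genes were among 21888 gene symbols measured by RNA sequencing. These 9 members were chosen by the level of miR-34a at day 45 after Cre delivery, which was higher than in uninjected mice, so the day 45 values of the members are a description from which nothing is read. All 9 members passed the filters on low values.

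The mice had LoxP sites flanking miR-122, the most abundant microRNA of the adult hepatocyte, and received rAAV8-Cre, an adeno-associated vector with the broadly active Ef1a promoter. Small RNA was sequenced from 24 such floxed livers. There were 3 mice each at day 0 (uninjected), 7, 14, 21 and 45, and 1 mouse each at day 1, 2, 3, 10, 17, 25, 36, 100 and 200. Another 14 small RNA libraries came from wild-type 129Sv/J livers between embryonic day 14 (E14) and postnatal day 270 (P270), and 4 from mice with Cre under the Albumin promoter, labelled LKO_flox (n = 2) and LKO_floxCre (n = 2), the latter with added rAAV-Cre. RNA sequencing covered 14 livers, with 3 mice each at day 0, 21 and 45, 1 mouse each at day 100 and day 200, and 3 mice with a germline miR-122 knockout. All day 0 mice were without vector, so vector delivery and miR-122 loss cannot be told apart where rAAV8-Cre livers are compared with day 0. The germline knockout and LKO_flox mice are not described as having received vector. In these bulk samples, a change in the number of cells of a type and a change in RNA per cell cannot be told apart either.

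p53, encoded by Trp53, is a transcription factor that accumulates after DNA damage and other stresses. Its targets include the cell cycle inhibitor p21 (Cdkn1a), the ubiquitin ligase Mdm2 that degrades p53 in a feedback loop, and the cell death proteins Bax and Puma (Bbc3). The Mir34a gene is itself a p53 target, and miR-34a in turn lowers Sirt1, a deacetylase that acts on p53. In the liver, miR-34a and Cdkn1a are known to respond to injury and regeneration.

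The mature sequences of the family are shown because miR-34a shares its seed, bases 2 to 8 and printed in capitals, with relatives that could act on the same sites. They were taken from RefSeq (GRCm38.p6) and are printed 5′ to 3′. The table of RPM gives 1 value per precursor, so the arms of a hairpin were not separated.
miR-34a-5p, chr4:150068473-150068494, plus strand: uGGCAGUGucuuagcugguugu
miR-34b-5p, chr9:51103610-51103632, minus strand: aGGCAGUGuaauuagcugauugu
miR-449a-5p, chr13:113037549-113037570, plus strand: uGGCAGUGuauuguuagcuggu
miR-449c-5p, chr13:113036008-113036028, plus strand: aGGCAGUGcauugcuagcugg
miR-34c and miR-449b also belong to this family.

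Before the results, some properties of the libraries need stating. Floxed small RNA libraries held 80092 to 866881 microRNA reads and the development and LKO libraries 34105 to 929409, and miR-34a was expressed as RPM, its reads scaled to 1000000 microRNA reads other than miR-122. A floor of 3 reads corresponded to between 3.77 and 37.8 RPM in floxed livers and between 5.89 and 137 RPM in the others. Knockout C stood apart from knockouts A and B, with a correlation of log2 FPKM across genes of 0.881 and 0.895 against 0.986 between A and B, and of 0.927 to 0.955 with the 11 floxed livers. Member values, list counts and the knockout differences printed for other genes are given with and without it. The hepatocyte marker Alb was listed at 0 in all 14 RNA-seq libraries and the marker Serpina1a in 10 of them. The summed FPKM of the 8 hepatocyte markers, these included, was 15436 or more in every liver.

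Apart from day 45, which chose the members, miR-34a was above all uninjected livers in 17 of the 18 Cre-treated floxed livers, the exception being the day 200 mouse. The share of all microRNAs with such a pattern is not given, and the uninjected mice also served the choice of the members. The uninjected livers A, B and C had 222 RPM (48 reads), 139 RPM (35 reads) and 76.8 RPM (19 reads), a mean of 146 ± 73.1 RPM (SD, n = 3). The single mouse at day 1 had 399 RPM (95% Wilson interval 303 to 526), at day 2 1766 RPM (1595 to 1956) and at day 3 1019 RPM (907 to 1145). All 3 values lay above the uninjected range, and the intervals cover counting error only.

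A feature is called where the adjusted p is below 0.05, and the background is the share of all tested features that were called. At day 7 the livers had 2246, 1591 and 796 RPM, a mean of 1544 ± 726 RPM and 10.6-fold the uninjected mean. The log2 difference was 3.40 ± 0.65 (SE; limma adjusted p = 0.0123), and miR-34a was the only microRNA of 253 tested that was called, a background of 0.395%. This call did not hold without uninjected mouse C (adjusted p = 0.121), day 7 mouse A (0.146) or day 7 mouse B (0.08). At day 14 the levels were 2734, 2284 and 2449.7 RPM, a mean of 2489 ± 227 RPM and 17.1-fold. The log2 difference of 4.21 was the highest among all 253 microRNAs (limma adjusted p = 0.000851, background 1.19%). At day 21 the levels were 1522, 1403 and 1257 RPM, a mean of 1394 ± 133 RPM, and the log2 difference was 3.37 (limma adjusted p = 0.00451, background 5.14%).

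None of the 3 groups overlapped with day 0, and an exact two-sided permutation test gave p = 0.1 for each, the smallest value that 3 against 3 mice allow. The day 0 mice also served the choice of the members, and each of these comparisons shares them. Over all 253 microRNAs the median log2 difference came to 0.33 (day 7), 0.68 (day 14) and 0.56 (day 21). Of these microRNAs 73.1%, 77.5% and 73.1% were higher than at day 0, and the share without overlap is not given. Day 14 exceeded day 7 by 0.81 on the log2 scale (limma adjusted p = 0.941), day 21 differed from day 7 by -0.03 (limma adjusted p = 0.979), and day 21 fell short of day 14 by 0.84 (limma adjusted p = 0.916). The order day 14, day 7, day 21 by mean level was therefore not resolved.

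**Figure D1:**
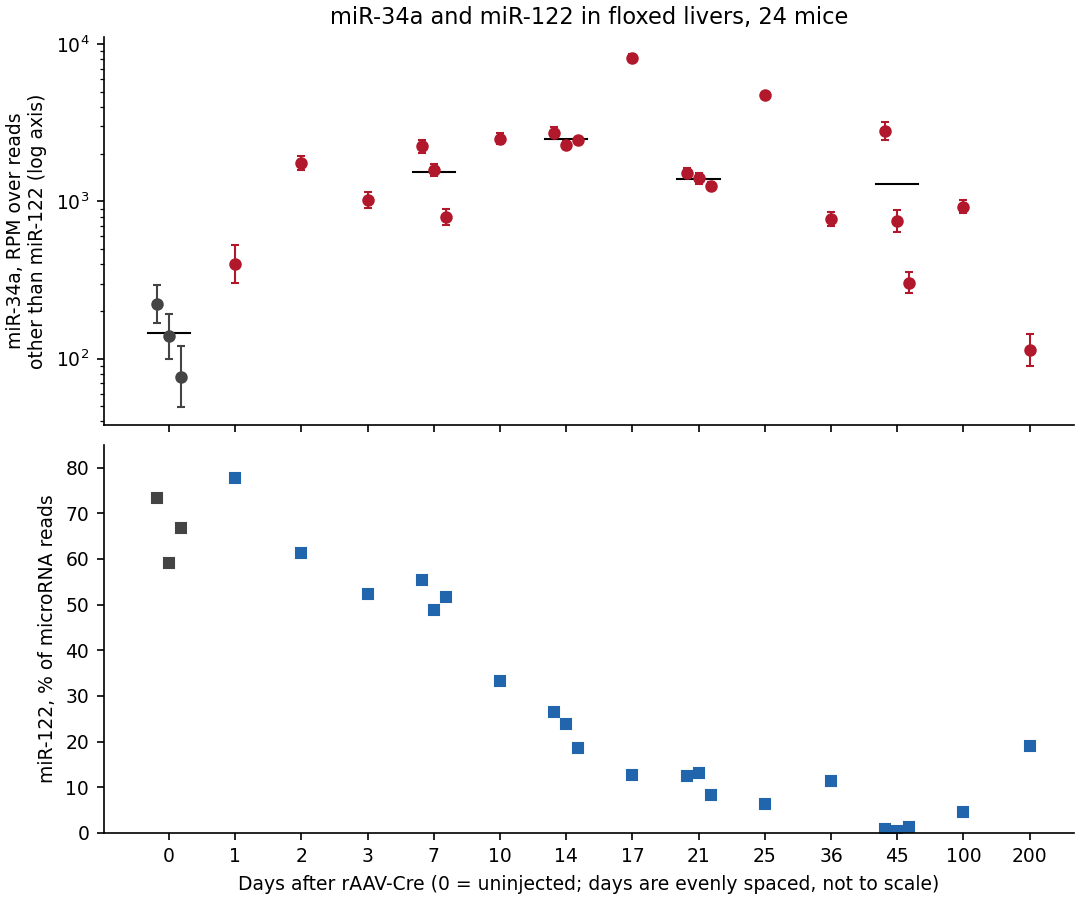
miR-34a in RPM of reads other than miR-122 (top, log axis) and miR-122 as a percentage of microRNA reads (bottom) against days after rAAV8-Cre, 1 point per mouse. Bars are 95% Wilson intervals and short lines are means of 3 mice. The highest miR-34a level, 8133 RPM, was in the day 17 mouse, and the day 200 mouse lay within the uninjected range.

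The highest single level was in the day 17 mouse, at 8133 RPM from 1142 reads (Wilson interval 7677 to 8617), which was 55.7-fold the uninjected mean. The day 10 mouse had 2502 RPM (2307 to 2713), the day 25 mouse 4761 RPM (4556 to 4974) and the day 36 mouse 769 RPM (695 to 851). With 1 mouse per day, these differences have no replicate check. At day 45 the livers A, B and C had 2809.8 RPM (223 reads), 756 RPM (146 reads) and 304 RPM (160 reads), a mean of 1289.7 ± 1336 RPM. All 3 lay above the uninjected livers, and the level of liver A, from the library with the fewest microRNA reads of the floxed livers, was above both others. The log2 difference at day 45 was 2.69 ± 0.65, 41st from the top of 253 microRNAs, and nothing is read from this or from the 20.6% of microRNAs called in that comparison, since it chose the members.

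miR-34a stood at 927 RPM in the day 100 mouse (Wilson interval 841 to 1023) and at 114 RPM in the day 200 mouse (90.1 to 143), the latter within the uninjected range. As a group of 2, these mice differed from day 0 by 1.28 on the log2 scale (limma adjusted p = 0.781), whereas 18.7% of 316 microRNAs were called. Without the day 100 mouse the difference was -0.23. miR-122 made up 59.2% to 73.3% of reads at day 0, between 0.383% and 1.23% at day 45, 4.46% in the day 100 mouse and 19.1% in the day 200 mouse. The summed level of 5 microRNA markers of ductal epithelium was 311 to 1235 RPM at day 0, 1487 to 3018 RPM at day 21 (0 of 5 called with limma) and 8809 to 9205 RPM in the late mice (3 of 5 called), and their part in the miR-34a level was not tested.

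Leaving aside days 0 and 45, which chose the members, the log2 level of miR-34a in the other 18 floxed livers was set against the log2 share of miR-122. Time after Cre and miR-122 loss go together in these mice, so the correlation cannot tell them apart. The Pearson correlation was -0.169 (permutation p = 0.509) and Spearman's rho -0.0939 (permutation p = 0.711), both with an adjusted p of 0.711 over these 2 relations. Leaving out the mice at days 1 and 2, the farthest from the median share, gave a Pearson correlation of -0.0662. Without the mice at days 100 and 200 (n = 16) the Pearson correlation was -0.423 (permutation p = 0.103) and Spearman's rho -0.253 (permutation p = 0.345). With miR-34a scaled to all microRNA reads, miR-122 included, the correlation was -0.458 (permutation p = 0.0550), on a scale that contains the miR-122 reads themselves.

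The seed relatives of miR-34a were near the detection limit in floxed livers. miR-34b and miR-34c had at most 6 reads in any of the 24 libraries and miR-449a at most 10, and none of the 5 relatives passed the filter for the time course.

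During normal development the levels of miR-34a differed widely between livers of the same age. The E14 livers had 1619.5 RPM (55 reads) and 194 RPM (77 reads), the E18 livers 239 and 143 RPM, and the P1 livers 554 and 41.0 RPM. One P8 liver had 119.7 RPM and the other had no miR-34a read, with a Wilson interval up to 62.7 RPM and a floor of 3 reads at 49.0 RPM. Single livers had 155 RPM at P12, 258 RPM at P17, 40.2 RPM (1 read) at P21 and 438 RPM at P28, and the P270 livers had 687 and 46.8 RPM. Among the ages with 2 livers, the ranges of E14 and E18, of E18 and P1, of P1 and P8 and of P8 and P270 overlapped.

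None of the developmental steps was called for miR-34a. The log2 difference was -1.60 from E14 to E18 (limma adjusted p = 0.63, background 11.7%, with 5.38% of all microRNAs called lower), -0.28 from E18 to P1 (0.985), -3.80 from P1 to P8 (0.646, background 0.316%) and 4.04 from P8 to P270 (0.107, background 41.5%). P270 against E14 gave -1.63 (limma adjusted p = 0.494, background 52.8%). The uninjected floxed livers differed from P270 by -0.43 (limma adjusted p = 1.0), in a comparison that called 0 of 316 microRNAs with limma and had 30 at an unadjusted p under 0.05. With each library centred on its median log2 ratio, the E18 to P1 and the P270 against E14 differences turned to 0.04 and 1.33, and P270 exceeded P8 by 6.69 (limma adjusted p = 0.00936). miR-449a, which shares the seed, had 343 and 412 reads in the E14 livers and at most 4 in any later developmental library. It passed the filter on low values through the E14 livers, so no test is given for it.

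In mice with Cre under the Albumin promoter, the LKO_flox livers had 262 and 243 RPM of miR-34a and the LKO_floxCre livers 515 and 721 RPM. All 4 lay above the 3 uninjected floxed livers and below all livers of days 7 to 21, given without the share of all microRNAs that did so. LKO_flox exceeded day 0 by 0.91 on the log2 scale (limma adjusted p = 0.896, background 13.3%), which turned to -0.03 with centred libraries, and LKO_floxCre exceeded LKO_flox by 1.27 ± 1.90 (SE; limma adjusted p = 1.0). That last comparison called 0 of 316 microRNAs with limma and had 15 at an unadjusted p under 0.05. The 4 LKO livers together differed from the 3 uninjected livers by 1.55 on the log2 scale (exact two-sided permutation test, p = 0.0571, the smallest this design allows). The 5 microRNA markers of ductal epithelium summed to between 4807 and 8472 RPM in LKO_flox, where 2 of 5 were called higher than at day 0, and to between 15195 and 18285 RPM in LKO_floxCre, against 311 to 1235 RPM at day 0, and their part in the miR-34a level was not tested. miR-122 was at 9.38% and 3.09% of reads in LKO_flox and at 0.837% and 1.11% in LKO_floxCre.

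**Figure D2:**
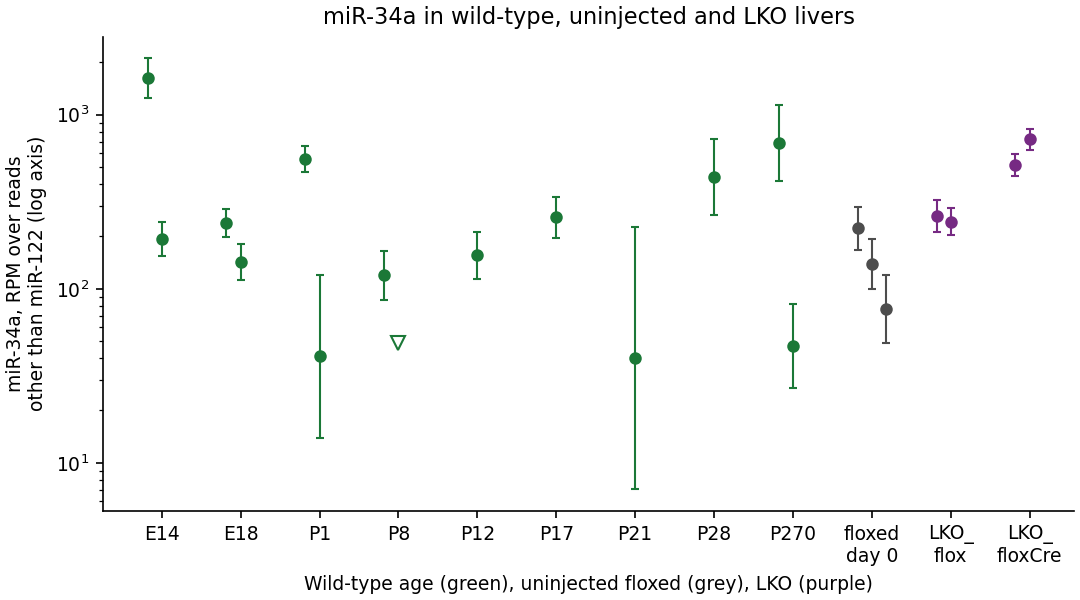
miR-34a in RPM of reads other than miR-122 (log axis) in wild-type livers by age, in uninjected floxed livers and in LKO livers, 1 point per mouse with 95% Wilson bars. The open triangle is the P8 liver without a miR-34a read, drawn at its floor of 3 reads, and the 4 LKO livers sit between 243 and 721 RPM.

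Cdkn1a, encoding p21, was higher than in uninjected livers at day 21, at days 100 and 200 and in the germline knockout. Its gene lies at chr17:29227931-29237667 on the plus strand (mm9). Expression is given as FPKM, fragments scaled to transcript length and library size, and log2 differences are on the log2(FPKM + 1) scale, which understates the change of low genes. Uninjected livers A, B and C had 1.995, 1.36 and 4.34 FPKM. The day 21 livers had 32.7, 54.9 and 69.3 FPKM, a mean of 52.3 ± 18.4 (SD, n = 3) and 20.4-fold the uninjected mean. The log2 difference was 3.93 ± 0.50 (SE; limma adjusted p = 0.00292), and 2 of 8 members were called higher against 6.2% of 11354 genes. The day 45 livers had 44.7, 52.4 and 36.4 FPKM, a log2 difference of 3.75.

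The day 100 and day 200 livers had 17.5 and 19.9 FPKM of Cdkn1a, a log2 difference of 2.55 ± 0.56 (limma adjusted p = 0.00421), and 3 of 8 members were called higher against 28.4% of genes. The knockout livers A, B and C had 47.0, 47.2 and 10.1 FPKM, a log2 difference of 3.14 ± 0.50 (limma adjusted p = 0.00114), and 2 of 8 members were called higher against 19.3% of genes. The lowest treated or knockout liver, knockout C, was above the highest uninjected liver, and without it the difference was 3.84. The share of all genes that separated from day 0 in this way is not given. At day 21, 2466 of 11354 genes had an unadjusted limma p under 0.05. At day 45, 3 of 8 members were called higher beside 23.7% of genes, and 0 lower beside 2.99%, from which nothing is read. At day 21, late and in the knockout 0 members were called lower, beside 1.42%, 3.21% and 14.5% of genes. Without knockout C, 4 of 8 members were called higher in the knockout and 2 lower, Mdm2 and Sirt1. In that fit 31.7% of all genes were called higher and 30.7% lower. The day 21, late and knockout calls of Cdkn1a held under every alternative run.

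The 5 genes whose pattern over the 14 livers was most like that of Cdkn1a were Il2rg (Pearson r = 0.940), Fcgr4 (0.934), Cd300a (0.934), Il18bp (0.933) and Arhgap25 (0.927), given as a description over libraries that share groups. Il2rg, Fcgr4 and Cd300a are known from leukocytes. The summed FPKM of 6 macrophage markers was 157 to 290 at day 0, 401 to 459 at day 21, 520 to 565 at day 45, 296 to 307 at days 100 and 200 and 174 to 445 in the knockout. The summed lymphocyte markers were at 2.70 to 5.59 FPKM at day 0, 13.4 to 19.5 at day 21, 17.5 to 19.0 late and 6.07 to 6.53 in the knockout, and no count of calls is given, since 2 of the 3 tested markers were below 1 FPKM at day 0 and passed the filter through other groups. The 5 cholangiocyte markers summed to between 46.1 and 59.2 FPKM at day 0, 137 and 203 at day 21, 405 and 1330 at day 45, 1920 and 2920 late and 551 and 794 in the knockout. Of the 4 with a day 0 mean of at least 1 FPKM, 2 were called higher at day 21, 4 late and 4 in the knockout. The part of these cells in the Cdkn1a level was not tested.

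**Figure D3:**
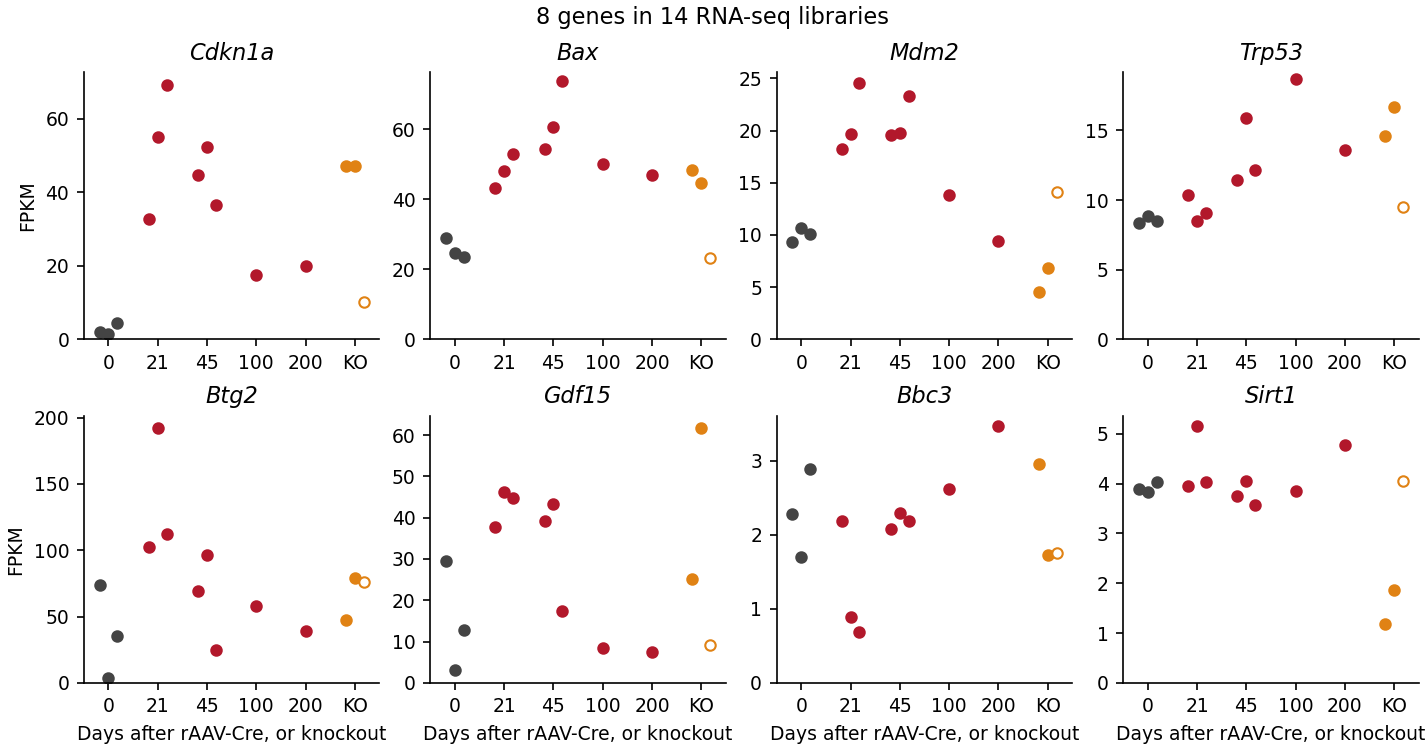
FPKM of the 8 genes in the 14 RNA-seq livers, 1 point per mouse, by group, with uninjected livers in grey, Cre-treated livers in red and germline knockouts in orange. Knockout C is drawn open, and Cdkn1a shows all 11 treated or knockout livers above the 3 uninjected ones.

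Trp53 itself (chr11:69393861-69405375, plus strand) was not called at day 21. Uninjected livers had 8.38, 8.88 and 8.49 FPKM, and the day 21 livers 10.4, 8.47 and 9.08 FPKM, a log2 difference of 0.10 (limma adjusted p = 0.844). The day 45 livers had 11.4, 15.9 and 12.1 FPKM. At days 100 and 200 it reached 18.7 and 13.6 FPKM, a log2 difference of 0.82 ± 0.22 (limma adjusted p = 0.0143), and in the knockouts 14.6, 16.7 and 9.49 FPKM, a difference of 0.57 (limma adjusted p = 0.0447) that was 0.79 without knockout C (0.00136). The late call did not hold without day 100 (adjusted p = 0.191) or with each library centred on its median ratio (0.115), and the knockout call did not hold in a fit of the 2 groups alone (0.149) or without any 1 of the 5 livers other than knockout C. A level of mRNA does not measure p53 protein, which is regulated mainly by degradation.

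Mdm2, the ubiquitin ligase for p53 (chr10:117125961-117147772, minus strand), was at 9.28, 10.6 and 10.0 FPKM in uninjected livers and at 18.2, 19.7 and 24.6 FPKM at day 21. The groups did not overlap, which is given without the share over all genes, and the log2 difference of 0.98 did not pass the threshold (limma adjusted p = 0.0601). It passed in a fit of the 2 groups alone (adjusted p = 0.0131). The day 45 livers had 19.6, 19.8 and 23.3 FPKM and those of days 100 and 200 had 13.8 and 9.39 FPKM, a late log2 difference of 0.18 that was -0.16 with centred libraries. Knockouts A, B and C had 4.57, 6.79 and 14.2 FPKM, with A and B below and C above every uninjected liver, and a log2 difference of -0.33 (limma adjusted p = 0.373). Without knockout C the difference was -0.74 (limma adjusted p = 0.00551), and without knockout A it was -0.01 (0.978). Set directly against day 21, the knockout was lower by 1.32 ± 0.29 on the log2 scale (limma adjusted p = 0.0149). This call held without knockout C (-1.72) and was lost without day 21 mouse B (adjusted p = 0.0514), day 21 mouse C (0.0534), knockout A (0.0577) or knockout B (0.0728).

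Bax, a pore-forming protein of the mitochondrial death pathway (chr7:52717065-52722268, minus strand), was called higher at day 21 and at days 100 and 200. Uninjected livers had 29.0, 24.7 and 23.5 FPKM, and the day 21 livers 43.1, 48.1 and 52.9 FPKM, a log2 difference of 0.88 ± 0.24 (limma adjusted p = 0.0408). This call was lost with centred libraries (adjusted p = 0.0698) and whenever any 1 of the 6 livers was left out. The day 45 livers had 54.3, 60.6 and 73.8 FPKM. At days 100 and 200 the levels were 50.2 and 46.9 FPKM, a log2 difference of 0.90 (limma adjusted p = 0.0205), and centring ended this call as well (0.165). It was also lost without uninjected mouse B, uninjected mouse C, day 100 or day 200. The knockouts had 48.3, 44.7 and 23.3 FPKM, a difference of 0.51 (limma adjusted p = 0.104) that was 0.83 without knockout C (0.000575) and 0.32 without knockout A (0.357).

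Bbc3, encoding the BH3-only death protein Puma (chr7:16894932-16903683, plus strand), was not called against day 0 at day 21, late or in the knockout. Uninjected livers had 2.28, 1.70 and 2.88 FPKM and the day 21 livers 2.18, 0.884 and 0.689 FPKM, a log2 difference of -0.59 (limma adjusted p = 0.167) that was -0.86 without day 21 mouse A (0.0366). The day 45 livers had 2.08, 2.29 and 2.19 FPKM, and days 100 and 200 had 2.61 and 3.47 FPKM. The late livers exceeded day 21 by 0.89 ± 0.27 on the log2 scale (limma adjusted p = 0.0462). This call was lost with centred libraries (0.62, limma adjusted p = 0.219) and without day 21 mouse B (0.145), day 21 mouse C (0.140), day 100 (0.166) or day 200 (0.234). The knockouts had 2.95, 1.72 and 1.76 FPKM, with B and C inside the uninjected range and A just above it, a log2 difference that was 0.01 without knockout C (limma adjusted p = 0.966).

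Btg2, an antiproliferative gene of the BTG family (chr1:135971442-135975732, minus strand), and Gdf15, a secreted stress cytokine (chr8:73153293-73155534, minus strand), varied widely in uninjected livers. Btg2 was at 73.9, 3.55 and 35.5 FPKM in uninjected livers A, B and C and at 103, 192 and 113 FPKM at day 21, a log2 difference of 2.50 ± 0.80 (limma adjusted p = 0.0798) that was 3.35 without uninjected mouse A (0.0409) and 1.33 without uninjected mouse B (0.197). Gdf15 was at 29.5, 3.14 and 12.8 FPKM in uninjected livers and at 37.8, 46.2 and 44.8 FPKM at day 21, a difference of 1.86 (0.13) that was 1.09 without uninjected mouse B (0.397). For both genes the 3 day 21 livers lay above all 3 uninjected livers, given without the share of all genes that did so. Uninjected liver B, the lowest for both, was also lowest for the summed FPKM of 10 immediate early genes, at 99.0 against 392 and 656 in the others, and the part of this in the Btg2 and Gdf15 differences was not tested.

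Later values of the pair did not pass the threshold. Btg2 had 69.0, 96.1 and 24.9 FPKM at day 45, 58.3 and 39.1 FPKM at days 100 and 200 (limma adjusted p = 0.403) and 47.4, 79.1 and 76.0 FPKM in the knockouts (0.149). The Btg2 knockout difference of 1.53 was 2.37 without uninjected mouse A (limma adjusted p = 0.0408), 0.35 without uninjected mouse B (0.63) and 1.43 without knockout C (0.199). Gdf15 had 39.1, 43.3 and 17.3 FPKM at day 45, 8.53 and 7.50 FPKM at days 100 and 200 (limma adjusted p = 0.726), and 25.2, 61.7 and 9.14 FPKM in the knockouts (0.229). The Gdf15 knockout difference of 1.09 was 1.75 without knockout C (limma adjusted p = 0.0379), 0.44 without knockout B (0.67), 0.32 without uninjected mouse B (0.726) and 1.76 without uninjected mouse A (0.0733).

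Parts of Sirt1 (chr10:62781753-62801783, minus strand, mm9) are shown because its 3′UTR holds 7-base matches to the start of miR-34a. The motifs CACTGCC, which complements bases 2 to 8, and ACTGCCA, which complements bases 2 to 7 and has an A opposite base 1, were searched on the sense strand of annotated 3′UTRs of mm9, with overlapping matches counted once. Of 19915 genes with a 3′UTR model, 20.6% held a match, as did 24.2% of 11005 tested genes, and among the members Bax (1 match), Bbc3 (1 match) and Sirt1 (2 matches) did. Both Sirt1 matches, in capitals, are of the second kind, do not extend the Watson-Crick match to base 8 of miR-34a and lie in all 4 annotated transcripts.
Sirt1 match 1, chr10:62782099-62782127, minus strand: aatacccagttaggaccattACTGCCAga
Sirt1 match 2, chr10:62782595-62782623, minus strand: catagatcttcaccacaaatACTGCCAag

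Sirt1 mRNA was not called in Cre-treated livers. Uninjected livers had 3.90, 3.83 and 4.04 FPKM, and the day 21 livers 3.96, 5.16 and 4.03 FPKM, a log2 difference of 0.12 (limma adjusted p = 0.841). The 3 livers of day 45 had 3.75, 4.05 and 3.57 FPKM and the late livers 3.85 and 4.77 FPKM, a late log2 difference of 0.10 that was -0.23 with centred libraries. The knockouts A, B and C had 1.17, 1.87 and 4.05 FPKM, a log2 difference of -0.64 (limma adjusted p = 0.0558) that was -0.98 without knockout C (0.000167), -0.37 without knockout A (0.235) and -0.66 with centred libraries (0.0412). The knockout was lower than day 21 by 0.76 ± 0.24 (limma adjusted p = 0.0444). This call held without knockout C (-1.10) and was lost without day 21 mouse A (adjusted p = 0.0781), B (0.149) or C (0.0819), without knockout A (-0.49, 0.188) or B (0.161), and with the replicate block (0.0688).

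Knockouts A and B also differed from the other libraries by transcript length. The median log2 ratio of the longest 25% of transcripts minus that of the shortest 25% was -0.859 in knockout A and -0.480 in knockout B, against 0.191 in knockout C and -0.273 to 0.354 in floxed livers. Sirt1, at 4430 bases, was in the longest class, and Trp53, Bax, Gdf15 and Bbc3 were in the shortest. The part of length in the knockout values was not tested.

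**Figure D4:**
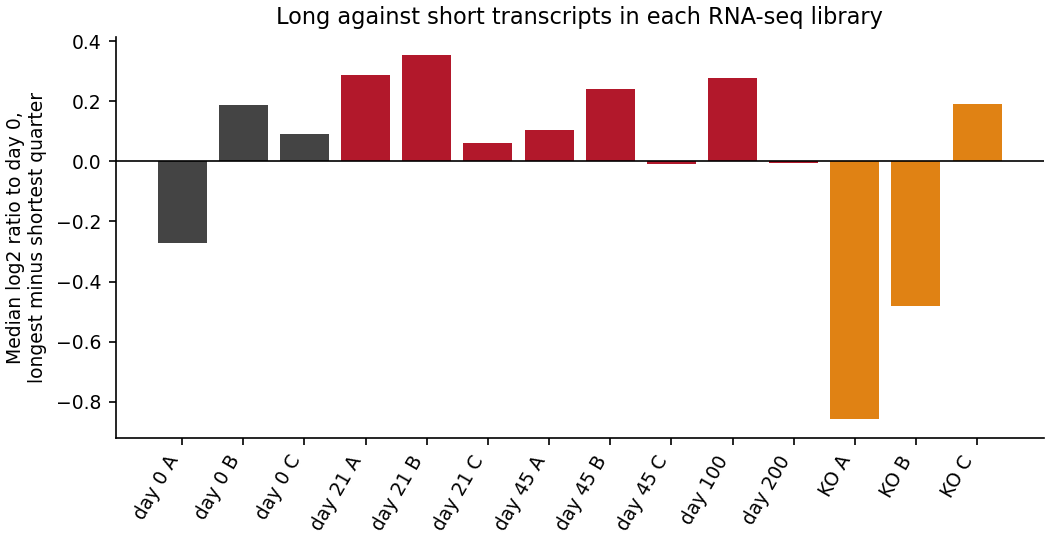
Median log2 ratio of the longest 25% of transcripts minus that of the shortest 25% (2773 genes each), 1 bar per RNA-seq library. Knockouts A and B have the lowest values, -0.859 and -0.480.

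Among 27 other known p53 targets, 25 were tested. At day 21, 10 were called higher and 1 lower, with a median log2 difference of 0.86 against 0.06 over all genes. At days 100 and 200, 11 were higher and 2 lower (median 0.58 against 0.31), and in the knockout 6 were higher and 5 lower (median -0.07 against 0.02). The day 45 counts were 11 higher and 1 lower. The backgrounds called higher were 6.2% at day 21, 28.4% late, 19.3% in the knockout and 23.7% at day 45, and those called lower 1.42%, 3.21%, 14.5% and 2.99%. Of the 25 targets, 7 had a day 0 mean below 1 FPKM and passed the filter through groups where they were higher, so the counts over all 25 are a description. Of the other 18, 5 were called higher and 1 lower at day 21, 6 and 2 late, and 1 and 5 in the knockout. Centring the libraries left 4 of the late targets higher, and without knockout C 7 of the 25 were higher and 9 lower in the knockout, beside 31.7% and 30.7% of genes.

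Phlda3, Apaf1 and Tnfrsf10b are among the 7 and are given as levels without a test. Phlda3, an inhibitor of Akt signalling, was at 0.511 to 1.21 FPKM at day 0, 9.24 to 14.7 FPKM at day 21, 9.12 and 7.46 FPKM at days 100 and 200 and 1.37 to 3.10 FPKM in the knockouts, the lowest of these being knockout C. Apaf1, the apoptosome scaffold, was at 0.458 to 0.806 FPKM at day 0, 1.81 to 2.47 FPKM at day 21, 5.496 and 3.33 FPKM late and 1.12 to 1.95 FPKM in the knockouts. The death receptor gene Tnfrsf10b was at 0.072 to 0.162 FPKM at day 0, 1.02 to 2.09 FPKM at day 21, 1.88 and 1.13 FPKM late and 0.424 to 1.04 FPKM in the knockouts. In all 3 genes every later or knockout liver lay above the uninjected ones. Nothing is read from this, since they passed the filter through groups where they were higher. Sesn2, a stress-induced inhibitor of mTORC1, rose by 1.22 at day 21 (limma adjusted p = 0.00362), 1.27 late and 0.95 in the knockout (1.16 without knockout C). Ei24 was called lower in all 3 comparisons, by 0.60, 0.83 and 1.25 (-1.40 in the knockout without C), from a mean of 140.1 FPKM at day 0. The day 21 call of Ei24 was lost with the replicate block and in runs with a replicate left out.

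Ccng1 and Eda2r were chosen after their values were seen, so all their levels are a description without a test. Ccng1, encoding cyclin G1, was at 12.5, 12.2 and 13.9 FPKM in uninjected livers and at 61.9, 89.4 and 72.5 FPKM at day 21, a log2 difference of 2.43 ± 0.38 (SE). The levels were 43.3 and 30.1 FPKM at days 100 and 200 and 8.26, 9.32 and 33.5 FPKM in knockouts A, B and C, so that A and B lay below all uninjected livers and C above the day 200 liver. Eda2r, a TNF receptor family member, is also among the 7, since it passed the filter on low values only through Cre-treated livers. It was at 0.137 FPKM or less at day 0, at 1.53, 5.61 and 4.08 FPKM at day 21, at 1.03 and 0.267 FPKM at days 100 and 200 and at 0.195 FPKM or less in the knockouts.

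Set directly against day 21, 9 of the 18 p53 targets with a day 0 mean of at least 1 FPKM were lower in the knockout and 0 higher with limma, where 10.9% of all genes were called lower and 9.05% higher. Without knockout C, 12 of the 18 were lower, beside 33.4% of genes. Over all 25 targets, Eda2r included, the count was 11 lower and 1 higher, and the lower count was 15 without knockout C, 5 without knockout A, 6 without knockout B and 5 without day 21 mouse B.

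**Figure D5:**
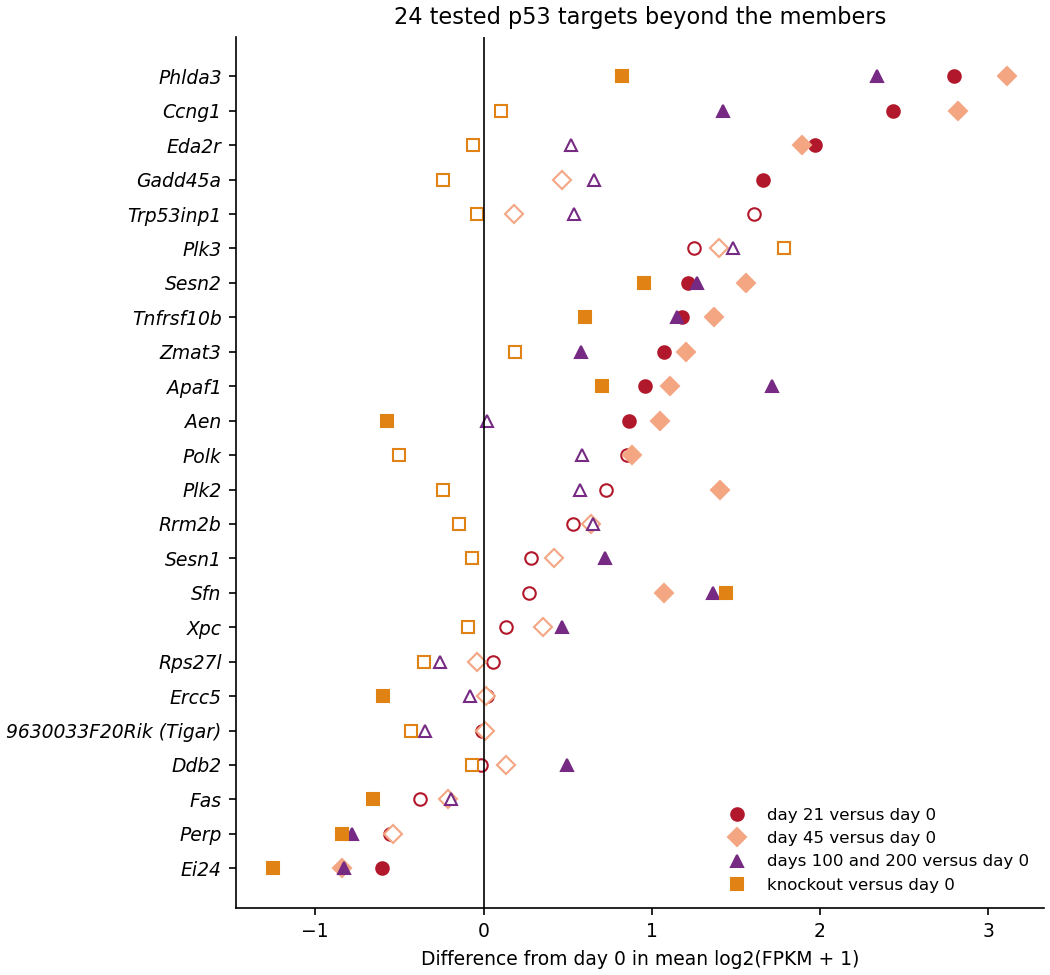
Differences from day 0 in mean log2(FPKM + 1) for 24 of the 25 tested p53 targets beyond the members, 1 row per gene, at day 21, day 45, days 100 and 200 and in the germline knockout, with symbols filled where called by limma. Of the 24 drawn, 9 were called higher and 1 lower at day 21, and 5 higher and 5 lower in the knockout, counts that include genes below 1 FPKM at day 0.

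Of 18 p53 regulators and relatives, 14 were tested and 0 were called at day 21 with limma. At days 100 and 200, 3 were higher, the acetyltransferase gene Kat5 (0.76, limma adjusted p = 0.0028), Trp53bp1 (0.75) and the checkpoint kinase gene Chek2 (0.72), beside 28.4% of all genes. In the knockout Kat5 was higher (0.60) and the damage kinase gene Atm lower (-0.67, limma adjusted p = 0.0397), beside 19.3% of genes higher and 14.5% lower. Without knockout C, 1 was higher, Kat5 at 0.71, and 8 were lower, with Atm at -0.97, beside 31.7% of genes higher and 30.7% lower. Trp63 and Trp73, the paralogs of Trp53, were listed at 0 in 9 and 8 of 14 libraries.

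Published miR-34a targets other than Sirt1 numbered 30, of which 25 were tested, and 26 of the 30 held a seed match. At day 21, 0 were called lower with limma and 4 higher, beside 1.42% and 6.2% of genes, including Ccnd1, encoding cyclin D1 (2.09 ± 0.51, limma adjusted p = 0.0283), the receptor kinase gene Axl (1.22) and Cd44 (1.28). At days 100 and 200, 12 were higher and 1 lower, and in the knockout 9 were higher and 1 lower, with Myc at 2.39 and 2.07, Cdk4 at 1.29 and 0.91 and Pdgfra at 2.49 and 1.06. The backgrounds were 28.4% higher and 3.21% lower late and 19.3% and 14.5% in the knockout. Without knockout C, 10 were higher and 3 lower, beside 31.7% and 30.7% of genes, with Myc at 2.12, Cdk4 at 1.13 and Pdgfra at 0.93. Myc and 2 others of the 25 were below 1 FPKM at day 0 and passed the filter through other groups, and of the other 22, 4 were called higher at day 21, 9 late and 7 in the knockout. The list's median was 0.23 at day 21, 0.67 late and 0.04 in the knockout. Stellate and fibroblast markers, a class that includes cells expressing Pdgfra, summed to 14.9 to 19.6 FPKM at day 0, 29.6 to 38.5 at day 21, 40.2 to 82.0 at day 45, 45.2 to 68.7 late and 20.8 to 43.7 in the knockout, and their part was not tested.

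Genes that p53 and p21 repress in the cell cycle were listed at low levels, and 9 of the 11 tested had a day 0 mean below 1 FPKM and passed the filter through other groups. With limma 0 were called at day 21 (median log2 difference 0.57), 11 were higher at days 100 and 200 (median 1.87, background 28.4%) and 2 in the knockout (background 19.3%). Without knockout C, 6 were higher in the knockout (background 31.7%). These counts are a description. Mki67, a proliferation marker, was at 0.161 to 0.858 FPKM at day 0 and at 6.32 and 1.81 FPKM in the day 100 and day 200 livers, with late log2 differences of 1.72 for Mki67, 1.88 for Top2a, 1.93 for Ccna2 and 1.32 for Bub1b. The 12 genes of the list summed to between 3.36 and 13.3 FPKM at day 0, 79.0 FPKM in the day 100 liver and 27.6 FPKM in the day 200 liver, and 8.26 to 33.0 FPKM in the knockouts. Without the day 100 mouse, when the late group was 1 liver, 0 of 11 were called with limma.

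Among relatives of the members, the BCL2 family had 4 of 8 tested genes higher late and 4 in the knockout, beside 28.4% and 19.3% of genes, and the pore-former Bak1 was higher in all 3 tested comparisons (0.91 at day 21, limma adjusted p = 0.0316; 1.42 late; 1.52 in the knockout). Bmf was at 1.87 late and 1.06 in the knockout, Mcl1 rose late (0.79), and Bid was lower in the knockout (-0.64). Without knockout C, 5 were higher and 1 lower, beside 31.7% and 30.7% of genes, with Bak1 at 1.72, Bmf at 1.19 and Bid at -0.57. Of the other CDK inhibitors, Cdkn2c rose late (1.52, limma adjusted p = 0.00404) and 0 of 3 tested were called at day 21. Cdkn1c, below 1 FPKM at day 0 on average, differed by 1.13 in the knockout (1.53 without knockout C). Without knockout C, 2 of the 3 were higher and Cdkn1b was lower (-0.64, limma adjusted p = 0.0213). Tob1, related to Btg2, was called at day 21 (0.87, limma adjusted p = 0.0408), and without knockout C it was lower in the knockout (-0.67, limma adjusted p = 0.00908) and Tob2 higher (1.10). Of 6 sirtuins, Sirt6 was higher late (0.96) and in the knockout (0.83), and Sirt3, a mitochondrial deacetylase, was lower in both (-0.51 each). Without knockout C these were 1.15 for Sirt6 and -0.46 for Sirt3.

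The integrated stress response, which also induces Gdf15, had 1 of 9 genes called higher at day 21 (Sesn2), 2 late and 3 in the knockout, beside 6.2%, 28.4% and 19.3% of genes. Without knockout C, 5 were called higher in the knockout, beside 31.7% of genes. Asns, the asparagine synthetase gene, rose by 2.73 in the knockout (limma adjusted p = 0.00245), and Chac1 by 1.42 there and by 1.29 late. Without knockout C these knockout values were 2.66 and 1.76. Of the 10 immediate early genes 0 were called at day 21 with limma and 1 late and 1 in the knockout, Ier3 (2.89 and 2.57). Without knockout C, 2 were higher in the knockout, Ier3 (3.28) and Junb (2.43).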

How the data were processed

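Libraries were made from mouse liver RNA, and lettered replicates were taken as separate mice. Where the sources do not say so, p-values measure only the spread between these samples. The authors deposited microRNA values as RPM, with 1 added to every value, in a table of 479 rows and 42 libraries. The deposited RNA-seq values are FPKM over 22308 rows, which gave 21888 symbols after 224 repeated symbols were summed. The submitters' processing notes name Bowtie 0.12.7, Cufflinks 2.2.1 and mm9. The added 1 was removed here, and whole reads were recovered from the RPM steps, with 100% of low values whole within 0.11 RPM. microRNA levels were then rescaled to reads other than miR-122, because the share of miR-122 itself differs between groups. Depth limits the precision of low microRNAs, and 95% Wilson intervals cover counting error only. The depth behind FPKM is not given in the sources used here.

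Groups were compared with limma 3.58.1 in R 4.3.3 on log2(value + 1), with Benjamini-Hochberg adjustment over all tested features and a threshold of 0.05. Filters were a mean of at least 10 RPM (253 microRNAs in the time course, 316 across development and LKO) and of at least 1 FPKM (11354 genes). Exact and 100000-resample permutation tests, Python 3.11.15 with scipy 1.17.1, served single values and correlations. Nothing says that replicates shared litters or days. The fits were tested on simulated data. Alternatives covered scaling, pseudocounts, filters, fits of 2 groups, the replicate letter and left-out libraries. No columns of values were left unused.

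The members and gene lists were chosen with earlier results of these data known. Named genes were all members and, from each list, the 4 genes with the lowest adjusted p outside day 45 plus any called in all 3 comparisons. Pidd1, Tigar, Cop1 and Adgre1 were matched through older symbols in the RefSeq table. One gene that this rule names is not reported here.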

Additional observations from a re-analysis of the deposited data

Results flagged for a closer look

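Differences between comparisons with day 0 were tested directly where the day 0 mice cancel. Bbc3 was higher at days 100 and 200 than at day 21, by 0.893 on the log2 scale (limma adjusted p = 0.0462). This Bbc3 call was lost with centred libraries (adjusted p = 0.219) and without day 21 mouse B (0.145), day 21 mouse C (0.140), day 100 (0.166) or day 200 (0.234). Mdm2 was lower in the knockout than at day 21 (log2 difference -1.32, limma adjusted p = 0.0149), with -1.72 without knockout C. The Mdm2 call was lost without knockout A (-0.996, limma adjusted p = 0.0577), knockout B (0.0728), day 21 mouse B (0.0514) or day 21 mouse C (0.0534). Sirt1 was lower in the knockout than at day 21 (-0.763, limma adjusted p = 0.0444), with -1.10 without knockout C. The Sirt1 call was lost without knockout A (-0.495, limma adjusted p = 0.188), knockout B (0.161) or any 1 of the day 21 mice (0.0781 to 0.149), and with the replicate block (0.0688). Of the 25 tested p53 targets, 2 were called lower at days 100 and 200 than at day 21, where 0.625% of all genes were. They were Aen and Eda2r, and Eda2r passed the filter on low values only through Cre-treated livers, which leaves 1 of the 18 targets with a day 0 mean of at least 1 FPKM. The count of 2 was 3 with centred libraries or without day 21 mouse A, 1 without day 21 mouse B or C, and 0 with limma without day 100 or day 200. In the knockout, 11 were lower than at day 21, where 10.9% of all genes were, and 8 were lower than at days 100 and 200, where 17.0% of all genes were. Of the 18, these counts were 9 and 6. The count of 8 was 14 without knockout C, where 40.4% of all genes were lower, and 1 with centred libraries. Without day 100 or day 200 the late group was 1 liver. The median log2 difference of the 25 was then -0.443 and -0.613.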

How the results depend on the processing

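Depth limited miR-34a mainly in the development libraries, and 1 mouse at each of days 100 and 200 limited the late comparisons. The planned count models, edgeR and DESeq2, were not run, and limma voom on recovered reads was chosen in their place after seeing the data. The day 14 and day 21 calls of miR-34a and the calls of Cdkn1a held under all alternatives run. The cause of each change below was not tested.

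With RPM over all reads, microRNAs called higher went from 3 to 145 at day 14, 13 to 148 at day 21 and 51 to 163 at day 45 (lower 1 to 0), miR-34a at day 45 from 2.69 to 4.25, and calls from 1 to 0 for P8 versus P1, 42 to 98 for LKO_flox versus day 0 and 59 to 113 for the late mice. With centred libraries, microRNAs called higher were 1 at day 14 and 7 at day 21, and lower 9 at day 45. miR-34a then turned to 0.0448 (P1 versus E18), 1.33 (P270 versus E14) and -0.0315 (LKO_flox versus day 0), and was called at 6.69 (P270 versus P8). Centring moved genes called at day 45 to 1644 higher and 795 lower, p53 targets lower to 2 and cell cycle genes to 5, and late to 1785 higher and 993 lower, with 4 p53 targets higher. It turned Mdm2 to -0.161, Bbc3 to -0.0325 and Sirt1 to -0.235 in the late comparison. Voom turned miR-34a for P1 versus E18 to 0.0326. A pseudocount of 10 RPM gave 5 microRNAs higher at day 21, and 67 for E18 versus E14, 2 for P1 versus E18 and 4 for P8 versus P1. No filter gave 3, 4, 1 and 1 calls for P1 versus E18, P8 versus P1, day 0 versus P270 and LKO_floxCre versus LKO_flox. A pseudocount of 0.1 FPKM gave 1 cell cycle gene at day 21, and a filter at 0.1 FPKM gave 4889 genes higher late and 0 cell cycle genes in the knockout.

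In fits of the 2 groups alone, day 21 had 1153 genes higher, 344 lower and 7 miR-34a targets higher. Day 45 had 564 lower with 2 p53 targets. The knockout had 768 higher and 274 lower, with 2 p53 targets higher and 1 lower, 3 miR-34a targets higher and 0 lower, and 0 cell cycle genes. Deviations of replicates with the same letter correlated between -0.0257 and 0.193 over 10 microRNA group pairs (3 above 0.1). Over 6 RNA-seq pairs the range was -0.22 to 0.342 (1 above 0.1). The letters were not taken as pairs in the main fits, and these correlations cannot exclude a batch shared by letter. The replicate block gave 385 genes higher and 85 lower at day 21, with 0 p53 targets lower and 2 miR-34a targets higher, 0 cell cycle genes in the knockout, and called miR-34a for P270 versus P8 at 4.045 (limma adjusted p = 0.0456). It also ended the Bax call at day 21 (limma adjusted p = 0.098) and the Trp53 call in the knockout (0.0536).

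Leaving out each replicate in turn gave these ranges, and where 1 liver remained in a group it was assumed to vary like the other groups. microRNAs called higher were 0 to 2 at day 7, 1 to 11 at day 14 and 5 to 24 at day 21, lower 0 to 3 at days 14 and 21 and 1 to 6 at day 45. miR-34a at day 7 was 3.005 to 3.815. In development, calls were 12 to 47 (E18 versus E14), 0 to 1 (P1 versus E18), 0 to 2 (P8 versus P1), 0 to 36 (day 0 versus P270) and 0 to 1 (LKO_floxCre versus LKO_flox). miR-34a was -3.126 to -0.0709 (E18 versus E14), -7.254 to -0.338 (P8 versus P1), -2.145 to 1.579 (P1 versus E18, 0.0849 among them), 0.587 to 7.503 (P270 versus P8), -3.556 to 0.292 (P270 versus E14), -2.356 to 1.492 (day 0 versus P270) and -0.229 to 2.788 (late). Genes called were 194 to 519 higher and 41 to 143 lower at day 21, with 0 p53 targets lower and 0 to 4 miR-34a targets higher. They were 1601 to 2493 higher and 145 to 260 lower at day 45, with 3 to 9 cell cycle genes, and 1501 to 2808 higher and 68 to 278 lower late, with 3 to 9 p53 targets higher, 1 to 2 lower, 7 to 11 miR-34a targets higher and 0 to 11 cell cycle genes. In the knockout they were 1063 to 3610 higher and 558 to 3490 lower, with 3 to 7 p53 targets higher, 2 to 9 lower, 3 to 10 miR-34a targets higher, 0 to 3 lower and 0 to 6 cell cycle genes. Late values ranged from -0.0789 to 0.436 for Mdm2, -0.101 to 1.92 for Btg2, -1.189 to 0.252 for Gdf15 and -0.0212 to 0.23 for Sirt1, and Bbc3 in the knockout from -0.246 to 0.0593, with 0.0232 and 0.0142 among them.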

Other observations

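The level of miR-34a across the 24 floxed livers was most like that of mir-339 (Pearson r = 0.759), mir-22 (0.716), mir-338 (0.698), mir-331 (0.693) and mir-294 (0.691), of 258 microRNAs compared. Across the 14 wild-type livers of development it was most like mir-27a (0.790), mir-290 (0.787), mir-30b (0.767), mir-219-1 (0.763) and mir-455 (0.749), of 320 compared. These are descriptions over libraries that share groups and a common scale, and mir-294 and mir-290 were without a read in at least 1 library.

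Among the members, Bax was most like Cdkn1a across the 14 RNA-seq livers (Pearson r = 0.827, 190th of 11354 genes), followed by Gdf15 (0.677) and Btg2 (0.616), whereas Bbc3 (-0.278) and Sirt1 (-0.222) had negative correlations.

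Genes with a 7-base match to the miR-34a seed region in the 3′UTR had a median log2 difference of 0.10 at day 21, against 0.05 for genes without one, of 0.34 against 0.30 at days 100 and 200, and of -1.4e-05 against 0.03 in the knockout. Their 3′UTRs were longer, with a median of 2060 against 884 bases, and no test was made of the difference.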
